A study of Rattus norvegicus with 172 samples.

Results

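Axon guidance ligands and receptors are the secreted and membrane proteins that steer growing axons: semaphorins with their plexin and neuropilin receptors, ephrins with their Eph receptors, Slits with their Robo receptors, and netrins with Dcc and the Unc5 receptors. They were followed here in granule cells, the excitatory neurons that form the main cell layer of the dentate gyrus in the hippocampus, in 4 rat models of epilepsy. Members were found by gene symbol alone, which gave 58 of the 14217 genes that the array measured with a probe set of 1 symbol. A gene with several probe sets was represented by the brightest, and levels are given as log2(signal + 16), where the signal is the deposited array intensity. Of the 58 genes, 44 passed a filter on low signal and were tested among 10761 genes, while the other 14 were too dim. Genes that passed the filter in few rats can do so through the groups in which they are high, so no count over the 44 is offered as support for a direction.

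All rats were male Sprague-Dawley, and granule cells were collected by laser from stained sections of each rat and pooled into 1 RNA sample, so a value belongs to 1 rat. In 3 models a single bout of status epilepticus (SE, a prolonged seizure) was followed by collection 1, 3 or 10 days later. Pilocarpine (300 to 350 mg/kg) was given in laboratories A and B, whose controls also received methylscopolamine, and SE was ended with pentobarbital after 90 min. Kainate was given hourly at 5 mg/kg until SE began, in laboratory A, where SE ended by itself after 6 to 8 h, and in laboratory B, where the first dose was 7.5 mg/kg and SE was stopped 90 min after its onset. SSSE (self-sustaining status epilepticus) was run in 1 laboratory, and how it was induced is not given in the sources used here. Kindling, in which repeated brief stimulation brings on seizures of rising stage, was run in laboratories A and B and sampled at stages 2, 4 and 5. Each group held 6 rats, except SSSE, with 6 rats at day 1, 5 at day 3, 4 at day 10 and 5 controls, and every laboratory had its own controls, which received saline in the pilocarpine and kainate laboratories. Each group held different rats by their labels, 164 in all, and p-values measure the spread between rats of a group.

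The doubted rats are 6 that stood apart from their own group over all tested genes, with a median correlation more than 0.02 under that of the group: kainate laboratory A day 1 rat 1, SSSE day 3 rat 4, kainate laboratory B day 10 rat 5, pilocarpine laboratory B day 10 rat 2 and pilocarpine laboratory A day 10 rats 2 and 5. Pilocarpine laboratory B day 10 rats 1, 2 and 3 and SSSE day 3 rat 4 had profiles nearest to those of day 1. They were picked from the same values that are tested. Leaving them out favours smaller later changes in genes that changed at day 1, and leaves fewer rats. A call lost without them is therefore not an independent check of that call. The labels of SSSE day 1 rat 3 and of kindling laboratory A stage 2 rat 4 contradict each other, and each rat was kept in the group its title gives. Calls and counts of members that changed without these rats are given beside the result or with the dependence on processing.

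The guidance families share a logic: a ligand on a cell or in the matrix binds a receptor on the growth cone, and the receptor acts on small GTPases and the cytoskeleton to make the axon turn, stop or withdraw. In the adult dentate gyrus many of these genes stay on in granule cells, whose axons, the mossy fibres, run to area CA3 and sprout into the inner molecular layer in epilepsy models. In mice, semaphorin 6a with plexins A2 and A4 sets the layers in which mossy fibres grow, semaphorin 3f with neuropilin 2 and plexin A3 limits spines and prunes mossy fibre branches, and ephrin B3 takes part in that pruning.

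Promoter windows are shown for the 2 members with the largest rises at day 1 after SE and for 2 members that fell in all 3 SE models and at kindling stage 5. RefSeq (build GRCr8) gave a window for 34 of the 44 tested genes, running from 250 bases before to 50 bases after the annotated start, and the 50 bases after the start are in capitals. The windows are Efna5 at chr9:110042138-110042437 (minus strand), Ephb6 at chr4:71458382-71458681 (plus strand), Sema3e at chr4:21510325-21510624 (minus strand) and Plxnc1 at chr7:31430556-31430855 (minus strand).
Efna5: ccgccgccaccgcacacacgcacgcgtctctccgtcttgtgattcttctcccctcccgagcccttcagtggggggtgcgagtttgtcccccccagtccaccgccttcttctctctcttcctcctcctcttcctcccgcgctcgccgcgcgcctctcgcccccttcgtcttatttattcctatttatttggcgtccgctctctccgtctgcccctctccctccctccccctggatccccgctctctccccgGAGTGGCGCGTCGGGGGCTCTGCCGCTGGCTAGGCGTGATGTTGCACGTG
Ephb6: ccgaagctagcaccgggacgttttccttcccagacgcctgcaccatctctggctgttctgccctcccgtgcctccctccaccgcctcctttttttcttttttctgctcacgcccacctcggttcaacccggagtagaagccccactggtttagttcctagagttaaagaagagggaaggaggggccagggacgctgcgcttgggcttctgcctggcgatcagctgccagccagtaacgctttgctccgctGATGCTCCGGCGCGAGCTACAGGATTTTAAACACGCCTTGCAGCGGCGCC
Sema3e: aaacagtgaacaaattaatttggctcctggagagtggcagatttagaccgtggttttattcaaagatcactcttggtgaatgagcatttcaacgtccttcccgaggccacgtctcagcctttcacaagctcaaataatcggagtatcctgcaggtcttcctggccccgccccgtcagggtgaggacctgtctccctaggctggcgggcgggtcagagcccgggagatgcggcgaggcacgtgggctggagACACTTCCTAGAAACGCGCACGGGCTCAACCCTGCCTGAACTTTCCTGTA
Plxnc1: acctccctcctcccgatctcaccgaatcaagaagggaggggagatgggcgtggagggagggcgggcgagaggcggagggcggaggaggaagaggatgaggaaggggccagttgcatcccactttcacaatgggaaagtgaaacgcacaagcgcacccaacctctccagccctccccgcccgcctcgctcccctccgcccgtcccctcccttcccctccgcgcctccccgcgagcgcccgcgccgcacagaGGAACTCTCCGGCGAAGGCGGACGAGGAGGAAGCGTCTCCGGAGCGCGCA
On either strand, the AP-1 motif TGANTCA was in 7.33% of 33469 windows, the CRE motif TGACGTCA in 1.83% and the EGR motif GCGNGGGCG in 4.98%, where N is any base. Neither the AP-1 letters nor the CRE letters occurred in the 34 windows of tested members. The EGR letters occurred in 5 of the 34, those of Efna1, Sema6d, Plxnb2, Plxna2 and Plxnc1, and in Plxnc1 they covered bases 234 to 242 of the window shown, just before the start.

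At day 1 after SE, most of the tested guidance genes that changed were lower than in controls. The counts below describe the genes that passed the filter and are not offered as support for a direction. They hold Epha7 as lower after pilocarpine and SSSE, although its other probe set rose after pilocarpine. They also hold Unc50 as higher after kainate, a gene taken by its symbol but outside the Unc5 family. A gene counted as changed when limma's moderated test, with Benjamini-Hochberg adjustment over the 10761 genes, gave an adjusted p under 0.05, and changes are log2 differences in signal + 16 from controls of the same laboratory, with equal weight for each laboratory of a model. Each change is given with its standard error (SE, after ±), over 12 treated and 12 control rats for pilocarpine, kainate and kindling. After pilocarpine 23 of the 44 tested members changed at day 1, where 32.1% of all genes did, with 6 higher (15.8% of all genes) and 17 lower (16.3%). After kainate 24 changed, where 41.6% of all genes did, with 7 higher (22.2%) and 17 lower (19.4%). After SSSE 12 changed, where 12.5% of all genes did, with 2 higher (5.51%) and 10 lower (7.02%). The members' median change was -0.15 after pilocarpine, -0.21 after kainate and -0.20 after SSSE, against 0.00, 0.02 and 0.00 over all genes. The share that changed was above that of all genes in each model, and no test was made of the list as a whole. Of the 44, 9 changed in the same direction in all 3 models, where 6.83% of all genes did: Ephb6 was higher, and Efnb3, Plxna3, Plxnc1, Robo2, Robo3, Sema3e, Sema4d and Slit2 were lower.

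Fewer members were changed at the later times. At day 3 after pilocarpine 9 were called (11.7% of all genes), 3 higher (7.74%) and 6 lower (3.92%). After kainate 10 were called at day 3 (7.96%), 5 higher (4.66%) and 5 lower (3.3%), and after SSSE 4 (3.14%), 3 higher (1.66%) and 1 lower (1.48%), of which 2 were called without rat 4. Called with the same sign at day 3 after both pilocarpine and kainate were 7 members (4.27% of all genes), with Efna5, Ephb6 and Sema4a higher (2.86%) and Efnb3, Nrp2, Plxnc1 and Robo3 lower (1.41%). At day 10 after pilocarpine 8 were called (8.93%), 1 higher (3.82%) and 7 lower (5.11%), but 2 without the rats nearest to day 1, 0 in laboratory A fitted alone and 15 with all 28 groups in 1 fit. Kainate gave 6 (6.28%), 3 higher (2.57%) and 3 lower (3.71%), and SSSE 0 (0.344%), with 4 members and 1004 genes at an unadjusted p under 0.05. Called with the same sign at day 10 after both drugs were 4 members (2.86% of all genes), with Efna5 higher (1.13%) and Plxnc1, Robo3 and Sema3e lower (1.73%). Without the rats nearest to day 1, Efna5 and Plxnc1 did not pass after pilocarpine. Kindling gave 0 members at stage 2 and 0 at stage 4, where 0.0% of all genes changed. At each of these stages 3 members had an unadjusted p under 0.05, as did 523 and 504 of all genes. At stage 5 kindling gave 8 (7.1% of all genes), 5 higher (3.23%) and 3 lower (3.87%), but 2 with all 28 groups in 1 fit and 5 with the probe set of highest variance. The times of a model share their controls, so their counts are not independent of each other. Member counts under other settings, here and elsewhere, come without the share of all genes called in the same setting. They cannot show whether the members or the whole array shifted. The heat map of changes shows each of the 44 genes by role.

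**Figure D1:**
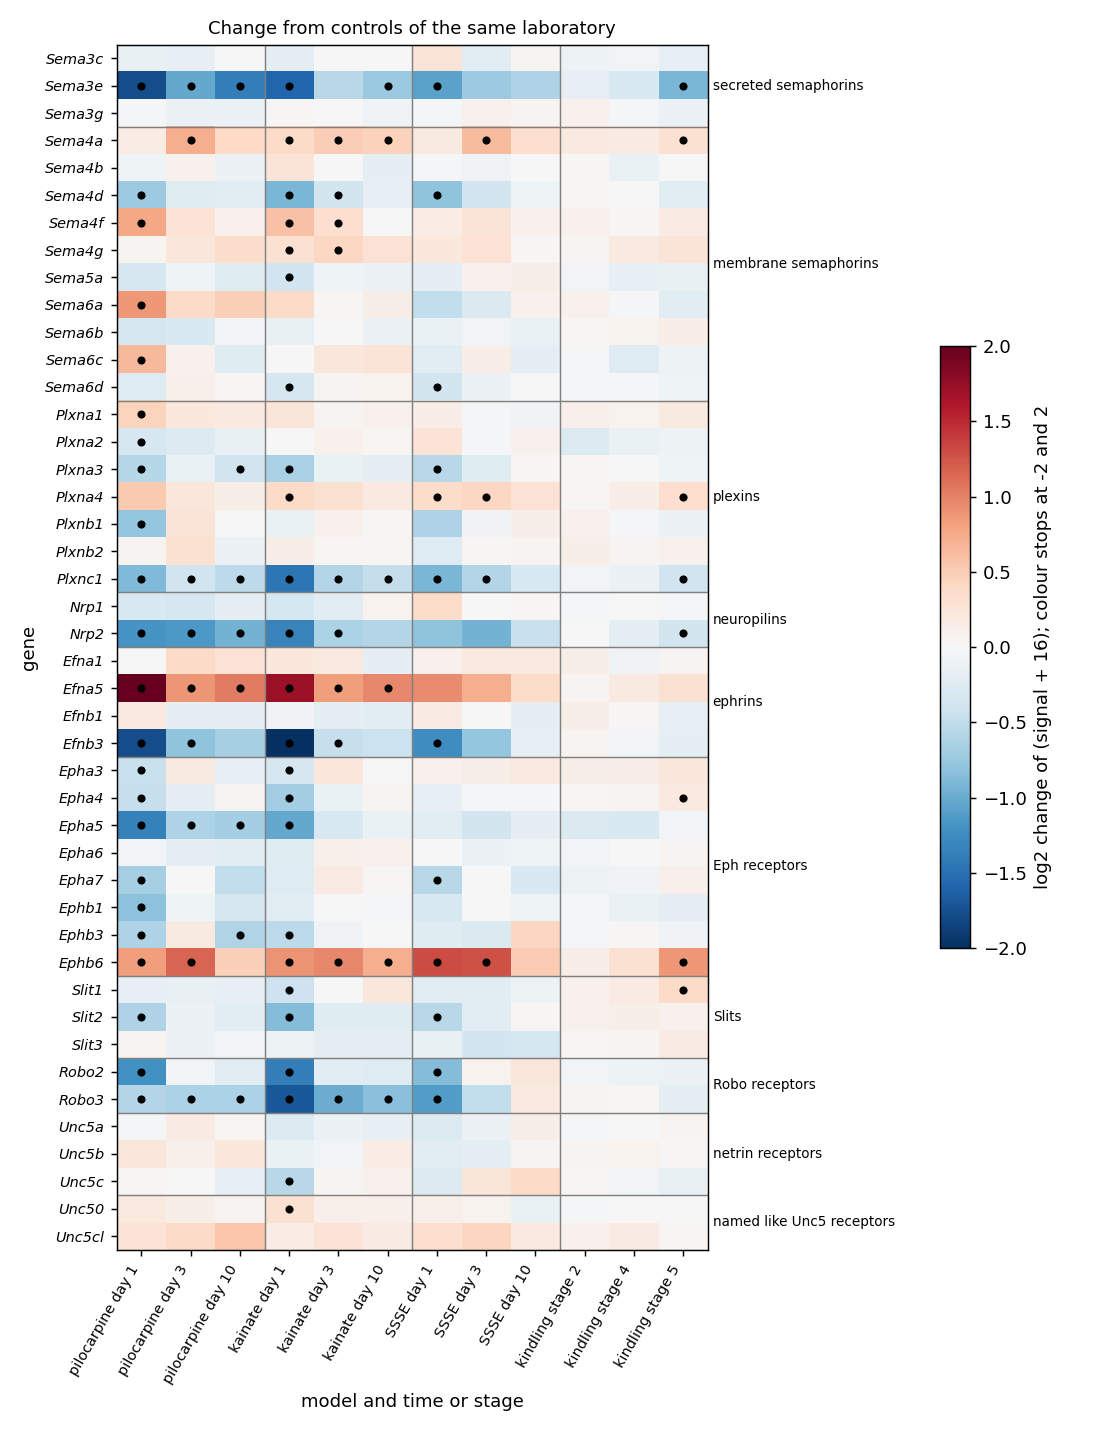
Change of the 44 tested members (rows, by role) in the 12 comparisons (columns), as the log2 difference in signal + 16 from controls of the same laboratory, with a dot where the adjusted p was under 0.05. Blue cells outnumber red ones among the dotted genes at day 1 (17 lower and 6 higher after pilocarpine), a description and not support for a direction. The rows of Sema3e, Plxnc1 and Ephb6 keep their colour into kindling stage 5.

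Cell type markers moved with the groups. Of 9 tested granule cell markers, 9 fell at day 1 after pilocarpine, 9 after kainate and 5 after SSSE, and 2 fell at kindling stage 5. Their summed signal was 4783 to 9849 at day 1 after pilocarpine, against 10387 to 15697 in controls, 4794 to 6985 after kainate, against 10349 to 12908, and 6712 to 10296 after SSSE, against 10697 to 13405. Thus every day 1 rat lay below every control of its model. At kindling stage 5 the sum was 9117 to 10333 (median 9515) in laboratory A, against 9949 to 11644 (median 10773) in controls. In laboratory B it was 11396 to 14576 (median 12669), against 11372 to 13078 (median 12696). The groups overlapped in both laboratories. Astrocyte markers fell in number 7, 7 and 5 of 10 at day 1 after pilocarpine, kainate and SSSE, and 1 of 10 rose in each. Their summed signal was 1967 to 7937 after pilocarpine, against 4715 to 12090 in controls, 3796 to 7011 after kainate, against 5285 to 7765, and 3827 to 5900 after SSSE, against 4514 to 6693. Microglia and macrophage markers rose in number 4 of 8 at day 1 after pilocarpine, with a summed signal of 326 to 712, against 190 to 431 in controls, and 4 of 8 after kainate, with 192 to 497, against 137 to 438. After SSSE 0 of 8 passed at day 1, with 156 to 400, against 157 to 228. Oligodendrocyte markers fell in number 2 of 9 at day 1 after pilocarpine, 0 after kainate and 0 after SSSE, and their summed signal was 881 to 6452 after pilocarpine, against 930 to 17250 in controls. Of 6 tested markers each at day 1, those of neighbouring pyramidal and mossy cells had 3 higher after pilocarpine, and 1 higher and 1 lower after kainate, those of young neurons had 1 higher and 2 lower after pilocarpine, 3 higher after kainate and 2 higher after SSSE, and those of interneurons had 1 lower in each model. At the later times granule cell markers fell in number 3 of 9 at day 3 and 3 at day 10 after pilocarpine, 2 and 3 after kainate, and 0 and 0 after SSSE. Astrocyte markers rose in number 4 of 10 at day 3 and 1 at day 10 after pilocarpine (2 fell at day 10), 2 and 1 after kainate, and 0 and 0 after SSSE. Microglia and macrophage markers rose in number 6 of 8 and 3 of 8 after pilocarpine, 6 and 4 after kainate, and 2 and 0 after SSSE. No list summed to 0 in any group. Fewer cells of a type and less RNA per cell cannot be told apart in samples of this kind, and the part of these markers in the results below was not tested.

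Among the 8 guidance genes that were lower in all 3 SE models at day 1 (3.94% of all genes were so) was the secreted ligand Sema3e, a class 3 semaphorin that binds plexin D1 without a neuropilin. At day 1 its level was 6.60 to 7.81 (median 7.07) in pilocarpine laboratory A, against 7.94 to 9.29 (median 8.45) in controls, and 5.73 to 7.17 (median 6.51) in laboratory B, against 8.22 to 9.41 (median 8.60) in controls. All 12 day 1 rats after pilocarpine lay below the lowest control of their laboratory, for a change of -1.77 ± 0.23 (adjusted p 9.12e-08), or 3.42-fold lower. After kainate the day 1 levels were 6.87 to 7.16 (median 7.03) in laboratory A, against 8.12 to 8.89 (median 8.70) in controls, and 6.61 to 7.88 (median 6.94) in laboratory B, against 8.14 to 9.12 (median 8.52). Again no treated rat reached its controls, with a change of -1.59 ± 0.23 (adjusted p 1.92e-07). In SSSE rats the day 1 levels were 6.49 to 7.86 (median 7.11), against 7.82, 8.09, 8.29, 8.49 and 8.5 in the 5 controls, and 5 of 6 rats lay below all controls (-1.07 ± 0.25, adjusted p 0.00965). Sema3e was still lower after pilocarpine at day 3 (-1.02 ± 0.23, adjusted p 0.0017) and day 10 (-1.38 ± 0.23, adjusted p 8.93e-05). The day 10 difference was larger in laboratory B, with a median of 6.77, against 8.60 in controls, where laboratory A had 7.98, against 8.45. After kainate it passed the test at day 10 (-0.74 ± 0.23, adjusted p 0.0415) and not at day 3 (-0.55 ± 0.23, adjusted p 0.148). After SSSE it passed at neither day 3 (-0.72 ± 0.26, adjusted p 0.129) nor day 10 (-0.61 ± 0.27, adjusted p 0.49).

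The other secreted semaphorins that were tested, Sema3c and Sema3g, passed the test in no comparison. Sema3c lay at 10.14 ± 0.35 (SD over the control rats of all laboratories), and its changes ran from -0.21 to 0.25. Sema3g lay just inside the filter, above the array median in 11 rats, where 6 were needed. Sema3a, the ligand that acts through neuropilin 1, and Sema3f, the ligand of neuropilin 2, were among the genes that did not pass, with 0 and 4 rats above their array median.

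Among the membrane semaphorins, Sema4d, a ligand of plexin B1 that promotes inhibitory synapses in rodents, was lower at day 1 in all 3 SE models. After kainate, Sema4d lay at 6.17 to 6.60 (median 6.34) in laboratory A, against 6.85 to 7.45 (median 7.06) in controls, and at 5.58 to 6.29 (median 5.74) in laboratory B, against 6.51 to 7.41 (median 6.93). The groups did not overlap in either laboratory, and the change was -0.92 ± 0.10 (adjusted p 3.16e-10). After pilocarpine the levels were 5.73 to 6.27 (median 5.99) in laboratory A, against 6.68 to 7.47 (median 7.03), and 5.80 to 6.78 (median 6.20) in laboratory B, against 6.45 to 7.01 (median 6.68). Laboratory A showed no overlap, laboratory B did, and the change over both was -0.72 ± 0.13 (adjusted p 3.94e-05). In SSSE, Sema4d was 6.12 to 6.95 (median 6.42) at day 1, against 6.99, 7.04, 7.11, 7.54 and 7.57 in controls, with 6 of 6 rats below the controls (-0.80 ± 0.16, adjusted p 0.00459). It was also lower at day 3 after kainate (-0.37 ± 0.10, adjusted p 0.014).

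The 5 membrane semaphorins that rose in an SE model were Sema4f, Sema6a, Sema6c, Sema4a and Sema4g. Sema4f, found at synapses, rose at day 1 after pilocarpine (0.77 ± 0.13, adjusted p 1.13e-05) and kainate (0.58 ± 0.10, adjusted p 8.32e-06), where 8.28 to 8.71 (median 8.49) in kainate laboratory A stood against 7.27 to 7.88 (median 7.76) in its controls. These 2 groups did not overlap. It also rose at day 3 after kainate (0.34 ± 0.10, adjusted p 0.0313). Sema6a, the transmembrane ligand of plexins A2 and A4, rose at day 1 after pilocarpine (0.86 ± 0.23, adjusted p 0.00274), as did Sema6c, of the same class (0.65 ± 0.25, adjusted p 0.0434). The other tested probe set of Sema6a did not pass there (0.33 ± 0.17, adjusted p 0.134). At day 1 after kainate it passed (0.37 ± 0.13, adjusted p 0.0194), while the brighter one did not (0.38 ± 0.18, adjusted p 0.0833). Sema4a, a membrane semaphorin best known from immune cells and the retina, rose at day 3 in all 3 SE models: 0.73 ± 0.15 (adjusted p 0.000435) after pilocarpine, where 12 of 12 rats lay above their controls, 0.49 ± 0.10 (adjusted p 0.00091) after kainate and 0.64 ± 0.16 (adjusted p 0.0357) after SSSE. Without SSSE rat 4 the last did not pass (0.57 ± 0.17, adjusted p 0.0932). At day 3, 6 of 8 microglia and macrophage markers rose after pilocarpine, 6 after kainate and 2 after SSSE, and their part in this was not tested. Sema4a also rose after kainate at day 1 (0.38 ± 0.10, adjusted p 0.00283) and day 10 (0.46 ± 0.10, adjusted p 0.00325), more so in laboratory A, at 0.65 and 0.73, than in laboratory B, at 0.10 and 0.18, a difference that did not pass its test. Sema4g rose after kainate at day 1 (0.30 ± 0.09, adjusted p 0.00994) and day 3 (0.41 ± 0.09, adjusted p 0.00273). Sema5a, which carries thrombospondin repeats, and Sema6d fell at day 1 after kainate, by 0.38 and 0.34 on the log2 scale, and Sema6d fell by 0.37 after SSSE. Sema4b and Sema6b passed in no comparison.

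Plxnc1, the plexin that binds semaphorin 7A, was the member called most often by the brightest probe sets, in 9 of 12 comparisons, always lower. At day 1 after kainate its level was 4.86 to 5.26 (median 5.08) in laboratory A, against 6.18 to 6.64 (median 6.55) in controls, and 4.69 to 5.45 (median 4.89) in laboratory B, against 5.93 to 6.77 (median 6.52). None of the 12 rats reached the controls, and the change was -1.45 ± 0.14 (adjusted p 1.15e-11), or 2.73-fold lower. Pilocarpine gave 4.88 to 5.59 (median 5.16) in laboratory A, against 6.16 to 6.59 (median 6.37), and 4.97 to 6.03 (median 5.88) in laboratory B, against 6.06 to 6.59 (median 6.26). Here too all 12 rats lay below their controls (-0.89 ± 0.12, adjusted p 1.3e-07). SSSE rats had 5.26 to 6.18 (median 5.65) at day 1 and 5.77, 5.91, 5.95, 6.14 and 6.27 at day 3, against 6.45, 6.60, 6.61, 6.65 and 6.70 in controls. Neither SSSE group overlapped the controls, with changes of -0.92 ± 0.13 (adjusted p 0.000385) at day 1 and -0.59 ± 0.13 (adjusted p 0.0177) at day 3. At later times it was lower by 0.40 and 0.52 (days 3 and 10 after pilocarpine) and by 0.58 and 0.48 (days 3 and 10 after kainate), and the day 10 call after pilocarpine was lost without the rats nearest to day 1 (adjusted p 0.0745). A second probe set of Plxnc1 fell less, by 0.70 after kainate at day 1 (adjusted p 2.63e-05), and did not pass at day 1 after pilocarpine (0.09 ± 0.13) or SSSE (-0.34 ± 0.13). It passed at day 3 after kainate (-0.50 ± 0.13, adjusted p 0.011) and in none of the remaining comparisons.

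Plxna3, the plexin that joins neuropilin 2 in receptors for semaphorin 3f, was lower at day 1 in all 3 SE models. Its day 1 levels were 6.35 to 6.96 (median 6.76) and 6.19 to 7.30 (median 6.60) in pilocarpine laboratories A and B, against 7.13 to 7.72 (median 7.27) and 6.66 to 7.52 (median 7.25) in their controls. The groups overlapped in laboratory B only, and the change was -0.57 ± 0.13 (adjusted p 0.000547). Kainate gave 6.36 to 7.05 (median 6.80) and 5.88 to 7.19 (median 6.35) in laboratories A and B, against 7.16 to 7.95 (median 7.29) and 6.78 to 7.64 (median 7.11), with 11 of 12 rats below their controls (-0.65 ± 0.11, adjusted p 6.66e-06). SSSE gave 6.72 to 7.55 (median 7.10), against 7.54, 7.63, 7.67, 7.74 and 7.80, with 5 of 6 below (-0.56 ± 0.17, adjusted p 0.0405). A second probe set of Plxna3 changed by -0.30 ± 0.14 after pilocarpine, which did not pass (adjusted p 0.0887), and by -0.31 ± 0.10 after kainate and -0.49 ± 0.14 after SSSE, which did (adjusted p 0.0148 and 0.0347). At day 10 after pilocarpine Plxna3 was called lower (-0.40 ± 0.13, adjusted p 0.0426), but not without the rats nearest to day 1 (-0.22 ± 0.14, adjusted p 0.487) or by the second probe set (-0.11 ± 0.14, adjusted p 0.698). Plxna4, a receptor for class 3 and class 6 semaphorins, went the other way and rose at day 1 after kainate (0.38 ± 0.11, adjusted p 0.00359) and after SSSE at day 1 (0.37 ± 0.08, adjusted p 0.00989) and day 3 (0.42 ± 0.09, adjusted p 0.012). After pilocarpine its day 1 change was 0.52 ± 0.24 (adjusted p 0.0935). The other tested probe set of Plxna4 passed at day 1 after SSSE (0.77 ± 0.23, adjusted p 0.0358). It did not pass at day 1 after kainate (0.11 ± 0.21, adjusted p 0.721) or day 3 after SSSE (0.66 ± 0.24, adjusted p 0.131). Plxna1 rose (0.45 ± 0.12, adjusted p 0.00364) and Plxna2 fell (-0.34 ± 0.11, adjusted p 0.0126) at day 1 after pilocarpine. Plxnb1, the receptor of Sema4d, fell there as well (-0.77 ± 0.17, adjusted p 0.00045), by 1.38 in laboratory A and 0.17 in laboratory B, while its other probe set changed by 0.01 ± 0.18. At day 1 after kainate that other probe set passed as higher (0.31 ± 0.12, adjusted p 0.0314). The brighter one did not pass there (-0.13 ± 0.13, adjusted p 0.436). Plxnb2 passed in no comparison.

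The 2 neuropilins, co-receptors of secreted semaphorins, differed in their calls by the brightest probe set. Nrp2 fell at day 1 to 7.39 to 8.41 (median 8.03) in pilocarpine laboratory B, against 9.13 to 9.77 (median 9.34) in controls, and to 7.46 to 9.41 (median 8.36) in laboratory A, against 8.95 to 9.52 (median 9.25). One rat of laboratory A overlapped its controls, and the change was -1.18 ± 0.21 (adjusted p 2.55e-05). After kainate Nrp2 lay at 7.86 to 8.26 (median 8.09) and 6.92 to 7.82 (median 7.37) in laboratories A and B, against 9.10 to 9.57 (median 9.42) and 8.32 to 9.10 (median 8.73). No rat of the 12 reached its controls (-1.33 ± 0.19, adjusted p 1.75e-07). It stayed lower at day 3 after pilocarpine (-1.15 ± 0.21, adjusted p 0.000135), at day 10 after pilocarpine (-0.95 ± 0.21, adjusted p 0.00279) and at day 3 after kainate (-0.63 ± 0.19, adjusted p 0.0317). The day 10 call was lost without the rats nearest to day 1 (-0.61 ± 0.21, adjusted p 0.109), and the change was -0.45 in laboratory A and -1.46 in laboratory B. After SSSE, 6.85, 8.16, 8.45, 8.55 and 8.72 at day 3 and 8.38, 8.64, 8.73 and 8.85 at day 10 stood against 8.98, 9.01, 9.03, 9.09 and 9.35 in controls. All treated rats were below the controls, yet the changes did not pass the test: -0.80 ± 0.28 (adjusted p 0.062) at day 1, -0.95 ± 0.29 (adjusted p 0.076) at day 3 and -0.44 ± 0.31 (adjusted p 0.715) at day 10. Nrp1, at 9.49 ± 0.25 (SD) in controls, passed in no comparison by its brightest probe set. Its day 1 changes were -0.30 ± 0.14 (adjusted p 0.0868) after pilocarpine, -0.35 ± 0.16 (adjusted p 0.0684) after kainate and 0.37 ± 0.17 (adjusted p 0.156) after SSSE. The other tested probe set of Nrp1 passed as lower at day 1 after kainate (-0.50 ± 0.20, adjusted p 0.0423). It did not pass at day 1 after pilocarpine (-0.22 ± 0.20, adjusted p 0.429) or SSSE (0.01 ± 0.16, adjusted p 0.972).

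**Figure D2:**
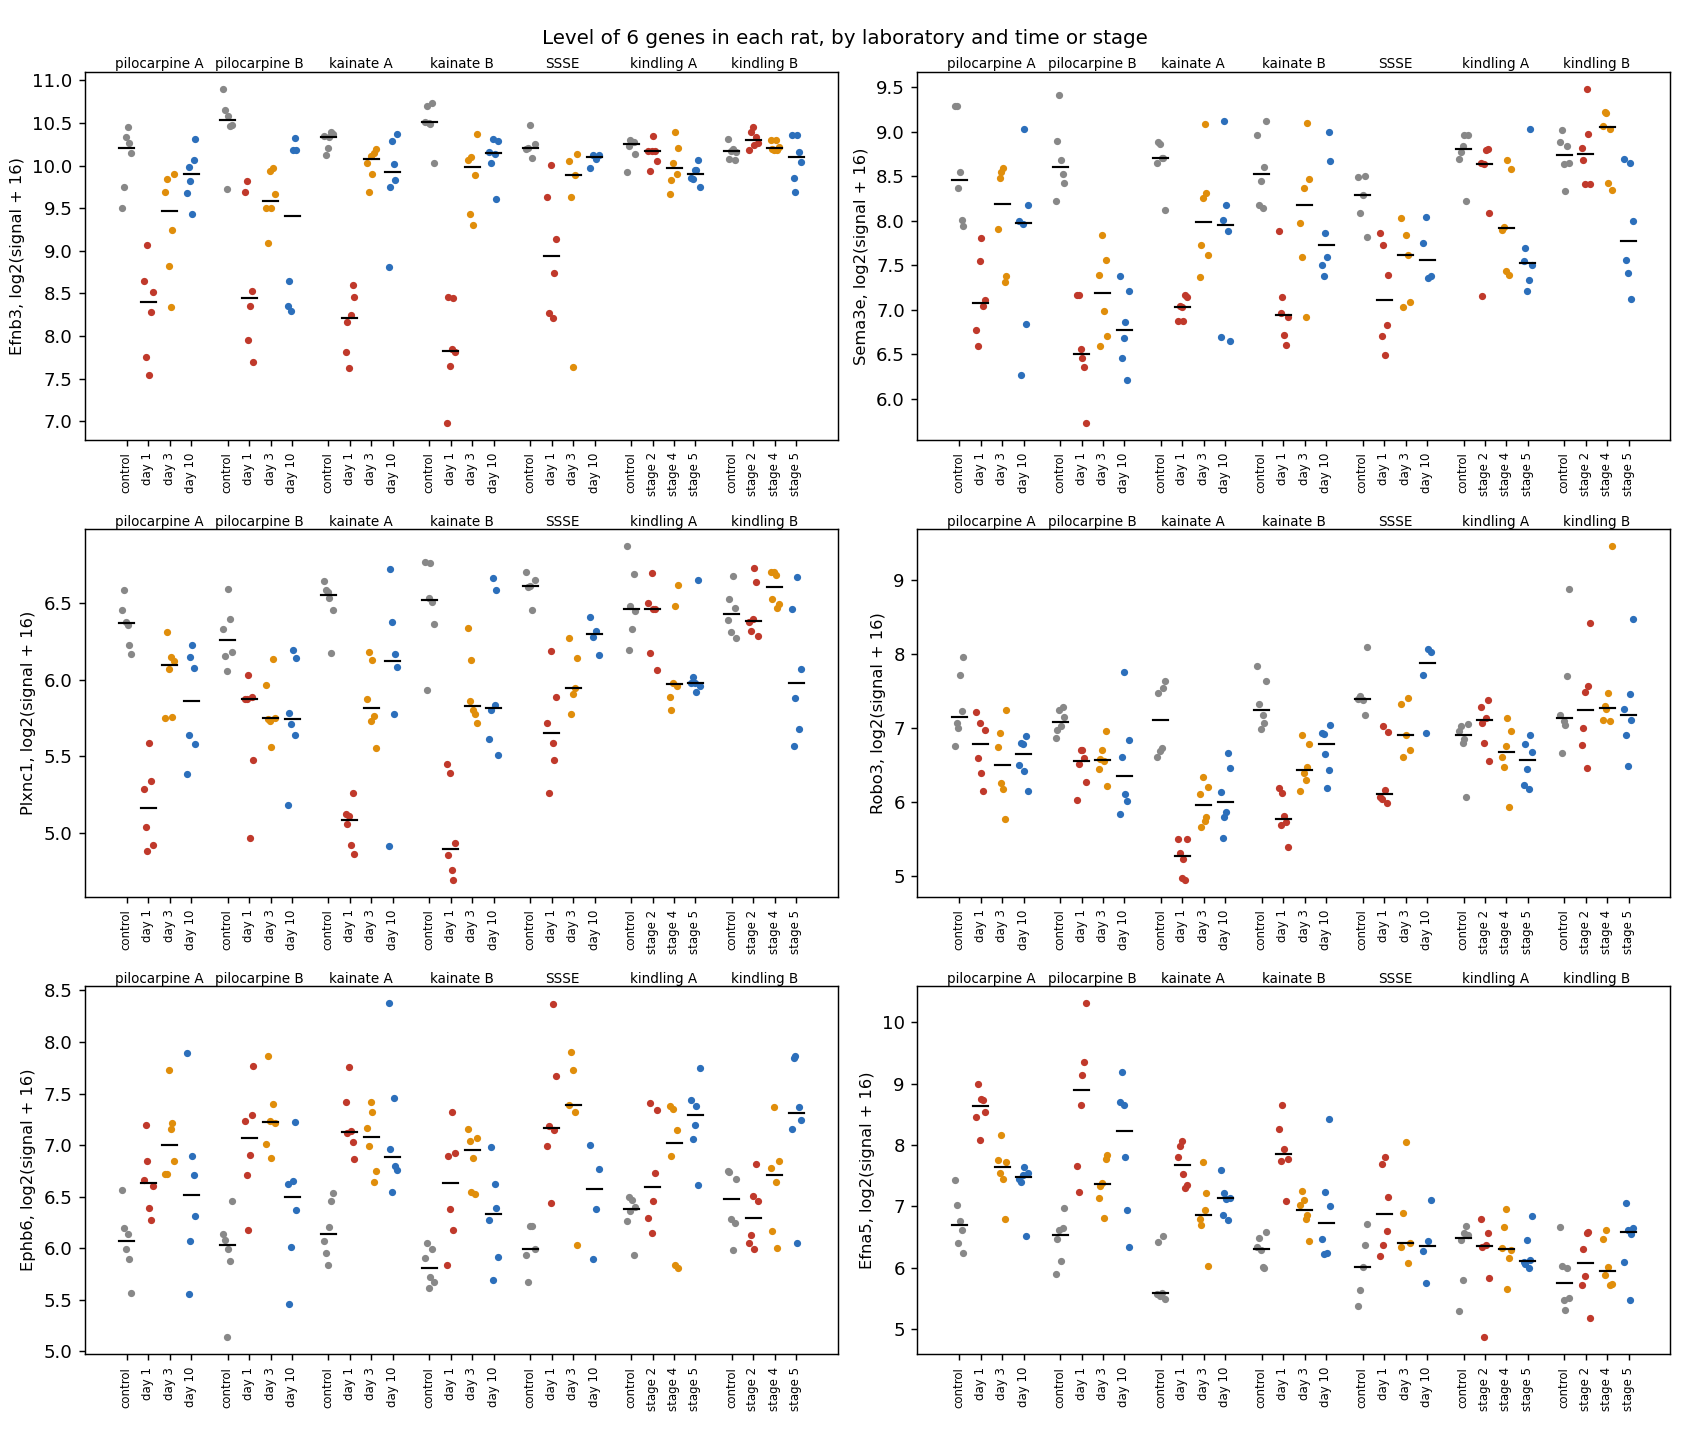
Level of 6 guidance genes in every rat as log2(signal + 16), with grey for controls, red for day 1 or stage 2, orange for day 3 or stage 4, blue for day 10 or stage 5, and a bar at each group's median. Day 1 rats of pilocarpine and kainate lie below their controls for Efnb3, Sema3e and Plxnc1, with 1 exception for Efnb3 (in pilocarpine laboratory B), and above them for Efna5.

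The largest fall of any member was that of Efnb3, a transmembrane ephrin that both binds EphB receptors and signals back into its own cell. At day 1 Efnb3 lay at 7.63 to 8.60 (median 8.21) in kainate laboratory A, against 10.13 to 10.40 (median 10.34) in controls, and at 6.98 to 8.46 (median 7.83) in laboratory B, against 10.03 to 10.73 (median 10.51). All 12 rats were below their controls by a wide gap, and the change was -2.39 ± 0.15 (adjusted p 1.94e-17), or 5.23-fold lower. Pilocarpine brought it to 7.55 to 9.06 (median 8.40) in laboratory A, against 9.50 to 10.46 (median 10.21), and 7.70 to 9.82 (median 8.44) in laboratory B, against 9.73 to 10.90 (median 10.53). In laboratory B 1 rat reached the controls, of which 1 was itself low, and the change was -1.78 ± 0.24 (adjusted p 1.53e-07). In SSSE it was 8.21 to 10.01 (median 8.94) at day 1, against 10.09, 10.19, 10.21, 10.25 and 10.48. The 6 treated rats were all lower but spread widely (-1.24 ± 0.37, adjusted p 0.0337). At day 3 Efnb3 was nearer to controls after pilocarpine (-0.81 ± 0.24, adjusted p 0.018) and kainate (-0.46 ± 0.15, adjusted p 0.0423), and 4 of the 5 SSSE rats had 9.64 to 10.14 while rat 4, a doubted rat, had 7.63. At day 10 it passed in no model, with -0.67 ± 0.24 (adjusted p 0.0693) after pilocarpine, -0.43 ± 0.15 (adjusted p 0.0688) after kainate and -0.17 ± 0.41 (adjusted p 0.941) after SSSE.

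Efna5, a lipid-anchored ephrin that binds EphA receptors and repels hippocampal axons, showed the largest rise. Its day 1 levels after pilocarpine were 8.08 to 9.0 (median 8.63) in laboratory A, against 6.24 to 7.43 (median 6.69) in controls, and 7.23 to 10.31 (median 8.90) in laboratory B, against 5.89 to 6.98 (median 6.54). All 12 rats lay above their controls, and the change was 2.06 ± 0.26 (adjusted p 3.64e-08), or 4.17-fold higher. After kainate they were 7.30 to 8.06 (median 7.67) and 7.08 to 8.66 (median 7.86) in laboratories A and B, against 5.49 to 6.51 (median 5.58) and 5.99 to 6.58 (median 6.31). Again 12 of 12 rats were above (1.72 ± 0.19, adjusted p 2.87e-10). In SSSE, Efna5 was 6.18 to 7.80 (median 6.87) at day 1, against 5.38, 5.64, 6.00, 6.37 and 6.70 in controls, with 3 of 6 rats above all controls and no pass (0.94 ± 0.36, adjusted p 0.0898). It stayed higher at day 3 after pilocarpine (0.88 ± 0.26, adjusted p 0.0182) and kainate (0.84 ± 0.19, adjusted p 0.00211) and at day 10 after both (1.04 ± 0.26, adjusted p 0.00681 and 0.96 ± 0.19, adjusted p 0.000624). The day 10 call after pilocarpine was lost without the rats nearest to day 1 (0.59 ± 0.25, adjusted p 0.236), and the rise was 0.60 in laboratory A and 1.49 in laboratory B. Efna1 and Efnb1, the other tested ephrins, passed in no comparison with controls, though Efnb1 was lower at kindling stage 5 than at stage 2.

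Of the 8 tested Eph receptors, the tyrosine kinases that ephrins bind, 6 fell and 1 rose at day 1 after pilocarpine, where 16.3% and 15.8% of all genes did, 4 fell and 1 rose after kainate (19.4% and 22.2%), and 1 fell and 1 rose after SSSE (7.02% and 5.51%). Ephb6, whose kinase domain lacks catalytic activity, was the one that rose in each, and it was the only member higher in all 3 SE models at day 1 (2.89% of all genes were so). Its day 1 levels were 6.87 to 7.75 (median 7.12) in kainate laboratory A, against 5.84 to 6.54 (median 6.14) in controls, and 5.83 to 7.32 (median 6.64) in laboratory B, against 5.62 to 6.05 (median 5.81). One rat of laboratory B overlapped its controls, and the change was 0.90 ± 0.16 (adjusted p 1.22e-05). Pilocarpine gave 6.27 to 7.20 (median 6.63) and 6.18 to 7.77 (median 7.07) in laboratories A and B, against 5.57 to 6.56 (median 6.07) and 5.14 to 6.46 (median 6.04), with 9 of 12 rats above (0.83 ± 0.20, adjusted p 0.000837). SSSE gave 6.44 to 8.37 (median 7.17), against 5.67, 5.94, 5.99, 6.21 and 6.21, and 6 of 6 rats were above (1.30 ± 0.32, adjusted p 0.0134). At day 3 Ephb6 was higher in all 3 models, by 1.16 ± 0.20 (adjusted p 3.5e-05) after pilocarpine, 0.96 ± 0.16 (adjusted p 4.46e-05) after kainate and 1.27 ± 0.33 (adjusted p 0.0412) after SSSE, with 12 of 12, 12 of 12 and 4 of 5 rats above their controls. Without SSSE rat 4 the SSSE change did not pass (1.16 ± 0.35, adjusted p 0.0993). At day 10 it passed after kainate (0.73 ± 0.16, adjusted p 0.00269).

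Epha5, an EphA receptor of forebrain neurons, fell at day 1 after pilocarpine (-1.35 ± 0.21, adjusted p 2.46e-06) and kainate (-1.02 ± 0.17, adjusted p 4.44e-06), and 9 of 12 kainate rats lay below their controls. Its day 1 level in pilocarpine laboratory B was 5.02 to 6.30 (median 5.52), against 6.20 to 7.88 (median 7.30) in controls, so these groups overlapped slightly. After SSSE it did not pass (-0.21 ± 0.18, adjusted p 0.439), with 7.06 to 7.78 (median 7.58) at day 1, against 7.45, 7.66, 7.67, 7.71 and 8.08. It was also lower at day 3 (-0.62 ± 0.21, adjusted p 0.047) and day 10 (-0.68 ± 0.21, adjusted p 0.0317) after pilocarpine. At day 10 its change was -0.25 in laboratory A and -1.12 in laboratory B, and the call was lost without the rats nearest to day 1 (-0.47 ± 0.23, adjusted p 0.333). Epha4, which binds ephrins of both classes and lay at 11.43 ± 0.57 (SD) in controls, fell at day 1 after kainate (-0.69 ± 0.09, adjusted p 7.2e-08), where 12 of 12 rats lay below their controls, and after pilocarpine (-0.46 ± 0.14, adjusted p 0.00817). Epha3 fell by 0.44 after pilocarpine and by 0.33 after kainate, Ephb3 by 0.62 and 0.53, and Ephb1 by 0.82 after pilocarpine (all at day 1). Ephb3 was also lower at day 10 after pilocarpine (-0.60 ± 0.20, adjusted p 0.0466), by 1.17 in laboratory B and 0.03 in laboratory A, and did not pass without the rats nearest to day 1 (adjusted p 0.385). Epha7 fell at day 1 after pilocarpine (-0.66 ± 0.20, adjusted p 0.00887) and SSSE (-0.56 ± 0.18, adjusted p 0.0459), but its other probe set rose after pilocarpine (0.75 ± 0.20, adjusted p 0.00362) and after kainate (0.56 ± 0.12, adjusted p 0.000267), so no direction is given for the gene, and the counts above use the brighter probe set. It was the only case among 13 members with several tested probe sets in which 2 were called in opposite directions in 1 comparison. Epha6 passed in no comparison.

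Slit2, a secreted ligand that repels axons through Robo receptors, fell at day 1 in all 3 SE models, with changes of -0.61 ± 0.14 (adjusted p 0.000545) after pilocarpine, -0.87 ± 0.15 (adjusted p 5.55e-06) after kainate and -0.55 ± 0.14 (adjusted p 0.0146) after SSSE. In kainate laboratory B it lay at 6.09 to 6.95 (median 6.62), against 7.15 to 7.49 (median 7.34) in controls, with no overlap, and in laboratory A at 6.02 to 7.50 (median 6.38), against 6.84 to 8.03 (median 7.35), where day 1 rat 1, a doubted rat, held the highest value. In pilocarpine laboratories A and B Slit2 lay at 6.07 to 7.08 (median 6.65) and 6.51 to 7.53 (median 6.90), against 6.82 to 7.41 (median 7.16) and 7.11 to 8.08 (median 7.55). Both pilocarpine groups overlapped their controls. In SSSE it was 6.24 to 7.34 (median 6.65), against 7.07, 7.15, 7.36, 7.42 and 7.43, with 5 of 6 rats below. A second Slit2 probe set gave -0.65 ± 0.16, -0.82 ± 0.14 and -0.70 ± 0.19 (SE) at day 1 after pilocarpine, kainate and SSSE and passed in each. Slit1 fell at day 1 after kainate (-0.42 ± 0.15, adjusted p 0.0196), by 0.74 in laboratory B and 0.11 in laboratory A, and Slit3 passed in no comparison.

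Robo2, a Slit receptor, fell at day 1 in all 3 SE models. After kainate it lay at 8.23 to 8.91 (median 8.43) and 8.01 to 9.21 (median 8.75) in laboratories A and B, against 9.51 to 10.04 (median 9.54) and 10.08 to 10.73 (median 10.18) in controls. The groups did not overlap (-1.38 ± 0.11, adjusted p 9.76e-14). After pilocarpine it lay at 8.76 to 9.74 (median 8.96) and 8.08 to 10.27 (median 8.92), against 9.97 to 10.71 (median 10.24) and 10.08 to 10.56 (median 10.28), with 11 of 12 rats below (-1.21 ± 0.18, adjusted p 1.16e-06). In SSSE it was 7.49 to 9.35 (median 8.39), against 9.08, 9.17, 9.23, 9.29 and 9.32, with 5 of 6 rats below (-0.86 ± 0.20, adjusted p 0.0114). At days 3 and 10 Robo2 passed in no model. Its other 2 tested probe sets changed less. At day 1 they gave -0.70 and -0.38 after kainate, both called. After pilocarpine they gave -0.45 ± 0.15 (adjusted p 0.0216) and -0.09 ± 0.12 (adjusted p 0.609), and after SSSE -0.82 ± 0.16 (adjusted p 0.0042) and -0.22 ± 0.10 (adjusted p 0.141).

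Robo3, which in mammals controls the crossing of commissural axons and binds Slits poorly, fell for longer. Its day 1 levels after kainate were 4.95 to 5.51 (median 5.27) and 5.39 to 6.19 (median 5.77) in laboratories A and B, against 6.61 to 7.64 (median 7.11) and 6.99 to 7.83 (median 7.25) in controls. None of the 12 rats reached its controls (-1.69 ± 0.14, adjusted p 7.05e-14). SSSE gave 5.99 to 7.03 (median 6.11), against 7.18, 7.38, 7.40, 7.44 and 8.10, also without overlap (-1.12 ± 0.24, adjusted p 0.00705). Pilocarpine gave 6.15 to 7.22 (median 6.79) and 6.03 to 6.71 (median 6.55), against 6.76 to 7.97 (median 7.16) and 6.87 to 7.29 (median 7.09), with 9 of 12 rats below (-0.59 ± 0.17, adjusted p 0.00537). It stayed lower at day 3 (-0.64 ± 0.17, adjusted p 0.00758 after pilocarpine and -0.99 ± 0.14, adjusted p 1.18e-06 after kainate) and at day 10 (-0.63 ± 0.17, adjusted p 0.0119 and -0.84 ± 0.14, adjusted p 4.94e-05). The 4 SSSE rats at day 10 had 6.94, 7.72, 8.03 and 8.07, of which 3 lay within the range of the controls. Robo1 was above its array median in 2 rats and was not tested.

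On the netrin side 3 receptors were tested. Ntn1, Ntn5 and Dcc, the netrins and the attractive receptor, did not pass the filter. Unc5c, a receptor for repulsion by netrin, fell at day 1 after kainate (-0.55 ± 0.17, adjusted p 0.00695), while Unc5a and Unc5b passed in no comparison. The symbol rule also took Unc50, a Golgi protein named alike but outside the Unc5 family, which rose at day 1 after kainate (0.30 ± 0.08, adjusted p 0.00109), and Unc5cl, a protein with the death domain of the Unc5 family, which passed in none. In all, by their brightest probe sets, 13 of the 44 tested members passed in no comparison with controls and 31 passed in at least 1, where 59.0% of all genes did. Those not tested were Dcc, Efna4, Epha2, Epha8, Epha10, Ephb4, Ntn1, Ntn5, Plxnd1, Robo1, Sema3a, Sema3b, Sema3d and Sema3f. Epha10, another receptor with an inactive kinase, lay just outside the filter with 5 rats above their array median. Without the filter Epha10 passed as lower in 5 comparisons, among them day 1 after pilocarpine (-0.52 ± 0.18, adjusted p 0.0253), kainate (-0.56 ± 0.13, adjusted p 0.000834) and SSSE (-0.65 ± 0.18, adjusted p 0.0331), and no other untested member passed.

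**Figure D3:**
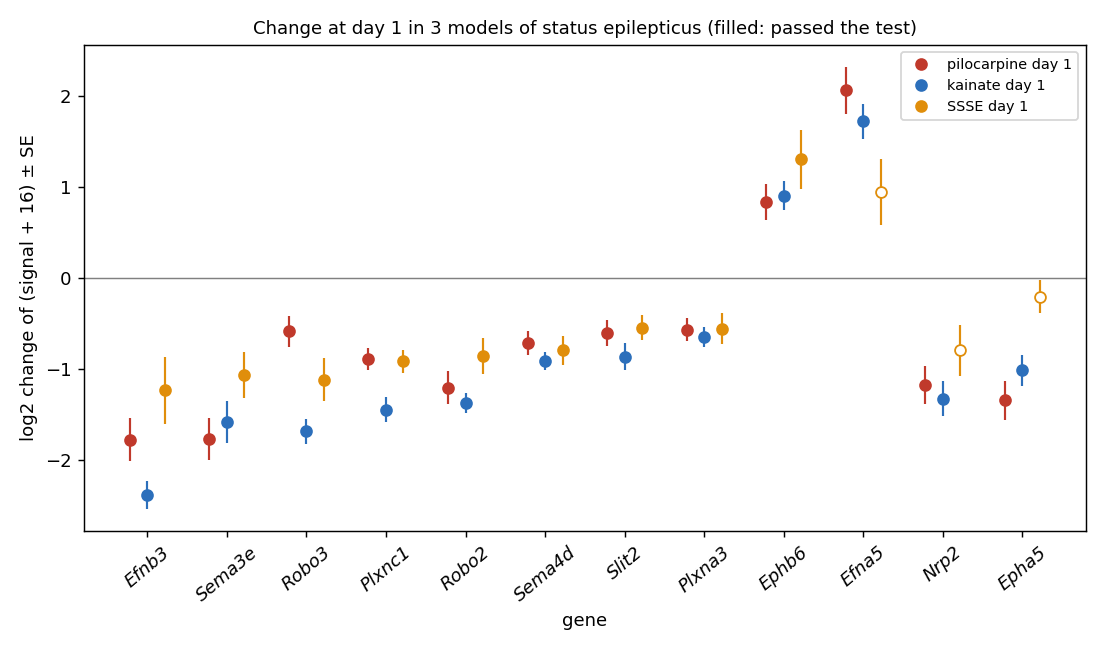
Change at day 1 of the 9 genes called in all 3 SE models and of Efna5, Nrp2 and Epha5, as the log2 difference in signal + 16 from controls, with bars of 1 SE and filled points where the test passed. The 3 models lie on the same side of 0 for each gene, from -2.39 for Efnb3 after kainate to 2.06 for Efna5 after pilocarpine, and the open points (Efna5, Nrp2 and Epha5) are all of SSSE. The 9 genes were picked by a like sign in all 3 models, so their shared side of 0 follows from that choice.

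The size of the change differed between the 3 SE models for 5 members at day 1, where 5.72% of all genes differed, by a moderated F-test in a fit over all 28 groups. Robo3 (adjusted p 0.0154) fell more after kainate than after pilocarpine, a difference of -1.10 ± 0.26 (SE, adjusted p 0.00851). Sema6a, by its brighter probe set (adjusted p 0.0154), rose after pilocarpine and was at -0.49 ± 0.21 (adjusted p 0.116) after SSSE, with SSSE minus pilocarpine at -1.35 ± 0.32 (adjusted p 0.00883). For Epha5 (adjusted p 0.0395) SSSE minus pilocarpine was 1.14 ± 0.31 (adjusted p 0.0297), and for Plxnc1 (adjusted p 0.0457) kainate minus pilocarpine was -0.56 ± 0.17 (adjusted p 0.0429). For Efnb3 (adjusted p 0.0415) no single pair passed, the nearest being kainate minus SSSE at -1.14 ± 0.33 (adjusted p 0.0607). Among members that did not pass the F-test, Ephb1 and Plxnb1 differed between kainate and pilocarpine (0.59 ± 0.18 and 0.64 ± 0.20, adjusted p 0.0433 and 0.0474) and Sema4f between SSSE and pilocarpine (-0.63 ± 0.19, adjusted p 0.0496). The count of 5 was 2 with 64 added before the logarithm or with arrays centred on their median, 3 without the filter, and 9 without the doubted rats. At days 3 and 10 no member differed between models, where 0.446% and 0.065% of all genes did; model and laboratory cannot be told apart here, since each laboratory ran 1 model.

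Many of the day 1 changes were smaller by day 3. Between days 3 and 1 after kainate 20 members differed, where 31.1% of all genes did, and Efnb3 was higher at day 3 than at day 1 by 1.93 ± 0.15 (SE, adjusted p 8.77e-14) and Robo2 by 1.15 ± 0.11 (adjusted p 7.41e-11). After pilocarpine 16 members differed between these days, where 23.2% of all genes did, with Robo2 higher at day 3 by 1.16 ± 0.18 (adjusted p 1.14e-05) and Efna5 lower by 1.18 on the log2 scale (adjusted p 0.000745). After SSSE 1 did, Robo2, at 0.92 ± 0.20 (adjusted p 0.0441), where 0.604% of all genes did. Between days 10 and 1 the counts were 24 after kainate (33.0% of all genes), 12 after pilocarpine (15.9%) and 8 after SSSE (5.85%). Robo2 was among those of each model, higher at day 10 by 1.12 ± 0.11, 1.00 ± 0.18 and 1.08 ± 0.22. Between days 10 and 3 only Ephb3 differed, lower by 0.78 at day 10 after pilocarpine (adjusted p 0.0275, with 1.68% of all genes), and none after kainate (0.743%) or SSSE (0.0%). At an unadjusted p under 0.05 were 3 members and 1326 genes after kainate, and 4 members and 771 genes after SSSE. Without the rats nearest to day 1, 2 of the 8 members called at day 10 after pilocarpine passed, Sema3e (-1.39 ± 0.26, adjusted p 0.00135) and Robo3 (-0.74 ± 0.17, adjusted p 0.00741), and laboratory A fitted alone gave 0. At day 3 after SSSE 2 members passed, Plxnc1 and Plxna4, without rat 4, and between 1 and 4 when 1 rat was left out in turn.

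In kindling, the members that passed did so at stage 5. At stage 5 Sema3e lay at 7.21 to 9.03 (median 7.52) in laboratory A, against 8.22 to 8.97 (median 8.80) in controls, and at 7.12 to 8.69 (median 7.77) in laboratory B, against 8.33 to 9.01 (median 8.74). In laboratory A 5 rats were below all controls and rat 1 was above them, in laboratory B the groups overlapped, and the change was -0.92 ± 0.20 (adjusted p 0.00329). At the earlier stages Sema3e had medians of 8.64 (stage 2) and 7.91 (stage 4) in laboratory A and of 8.74 and 9.05 in laboratory B, and neither change passed. Plxnc1 was 5.92 to 6.65 (median 5.98) in laboratory A, against 6.19 to 6.87 (median 6.46), and 5.57 to 6.67 (median 5.97) in laboratory B, against 6.27 to 6.68 (median 6.43). Rat 1 of laboratory A again stood above the other 5, and 9 of the 12 rats lay below their controls (-0.40 ± 0.11, adjusted p 0.0147). The second probe set of Plxnc1 did not pass (-0.28 ± 0.10, adjusted p 0.085). Nrp2 fell as well (-0.37 ± 0.12, adjusted p 0.0496), by 0.59 in laboratory A and 0.15 in laboratory B.

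Ephb6 rose at stage 5, to 6.61 to 7.75 (median 7.29) in laboratory A, against 5.94 to 6.5 (median 6.38) in controls, and 6.05 to 7.86 (median 7.31) in laboratory B, against 5.98 to 6.75 (median 6.48). All stage 5 rats except 1 of laboratory B were above their controls (0.86 ± 0.19, adjusted p 0.00417), and the stage 4 medians were 7.02 and 6.71 in the 2 laboratories. Slit1 rose to 6.22 to 7.12 (median 6.63) and 6.38 to 7.45 (median 6.96) in laboratories A and B, against 5.79 to 6.63 (median 6.29) and 6.28 to 6.89 (median 6.48), with overlap in both (0.38 ± 0.12, adjusted p 0.0405). Plxna4 (0.33 ± 0.09, adjusted p 0.0137), Sema4a (0.31 ± 0.06, adjusted p 0.000859) and Epha4 (0.19 ± 0.05, adjusted p 0.0204) rose too. The other 3 probe sets of Epha4 changed by 0.12, 0.01 and 0.11, and that of Plxna4 by 0.38 ± 0.19, and none of these passed. Sema4a was above its controls in 11 of 12 rats. At stage 5, 0 of 8 microglia and macrophage markers passed, and their part in the Sema4a rise was not tested. Efnb3 (-0.19 ± 0.07, adjusted p 0.0825) and Epha5 (-0.05 ± 0.14, adjusted p 0.893) did not pass. Between stages 5 and 2, which needs no controls, 5 members differed (2.65% of all genes): Sema3e by -0.76 ± 0.20 (adjusted p 0.0260), Ephb6 by 0.72 ± 0.19 (adjusted p 0.0294), Plxna4 by 0.30 ± 0.09, Efnb1 by -0.28 ± 0.07 and Efnb3 by -0.24 ± 0.07. This count was 3 without the filter and 2 with arrays centred on their median. The count of 8 at stage 5 was also 8 without stage 5 rat 1 of laboratory A, which was left out after its values were seen, 0 in each laboratory fitted alone, 2 with all 28 groups in 1 fit (Ephb6 and Sema3e) and 5 with the probe set of highest variance.

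**Figure D4:**
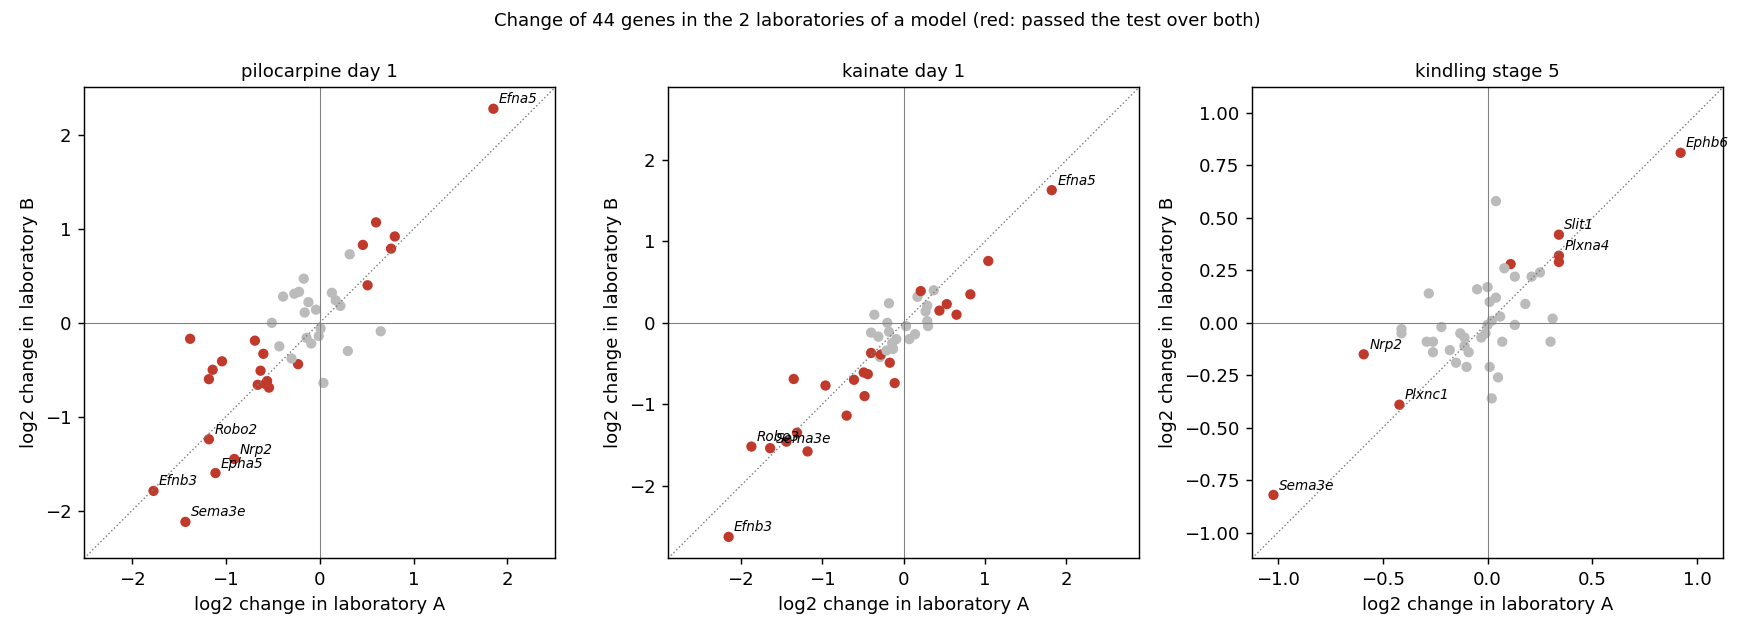
Change of the 44 tested genes in laboratory A (horizontal axis) and laboratory B (vertical axis) of a model, as log2 differences in signal + 16 from each laboratory's own controls, with called genes in red and a dotted line of equality. Points lie along the line for pilocarpine and kainate at day 1 (r 0.85 and 0.93) and more loosely for kindling at stage 5 (0.75).

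The laboratories of a model had separate rats and controls. Across the 44 genes their changes correlated at 0.85 for pilocarpine day 1, 0.93 for kainate day 1 and 0.75 for kindling stage 5, against 0.75, 0.85 and 0.51 across all genes, and at -0.08 and 0.03 for kindling stages 2 and 4; genes are not independent points. Every called member had the same sign in both laboratories in the first 3 comparisons (23 of 23, 24 of 24 and 8 of 8), and 0 members were called at kindling stages 2 and 4. A call rests on the mean of both laboratories, which favours like signs. The like-signed share of all called genes is not given, so this is not particular to the members. A test of the difference between laboratories called 0 members in each of the 9 comparisons, where at most 0.00929% of all genes differed, and between 1 and 9 members had an unadjusted p under 0.05.

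Other genes of the pathways, 78 effectors and co-receptors of which 68 were tested, moved in both directions. At day 1, 12 of the 68 rose and 16 fell after pilocarpine (15.8% and 16.3% of all genes), 15 rose and 15 fell after kainate (22.2% and 19.4%), and 2 rose and 4 fell after SSSE (5.51% and 7.02%). Gap43, a growth cone protein, rose after pilocarpine (1.58 ± 0.26, adjusted p 4.83e-06) and kainate (1.69 ± 0.18, adjusted p 1.91e-10). Flrt2, a membrane ligand of Unc5 receptors, rose as well (1.76 ± 0.25 and 1.24 ± 0.16, adjusted p 3.79e-07 and 1.83e-08), and so did Vasp, an actin regulator, after kainate (1.15 ± 0.12, adjusted p 8.46e-11). Vav2, an exchange factor that acts below Eph receptors, fell after pilocarpine (-1.34 ± 0.20, adjusted p 1.14e-06). After SSSE the largest changes were falls, of Farp1, an exchange factor below plexins (-1.31 ± 0.15, adjusted p 6.64e-05), Ngef, which binds Epha4 (-1.11 ± 0.23, adjusted p 0.00486), and Plxdc1 (-0.89 ± 0.17, adjusted p 0.00259). At kindling stage 5, 1 rose and 6 fell (3.23% and 3.87% of all genes), led by Farp1 (-0.68 ± 0.15, adjusted p 0.00456), Vav2 (-0.55 ± 0.15, adjusted p 0.0199) and Chn2 (-0.43 ± 0.14, adjusted p 0.0463), and stages 2 and 4 gave 0. At day 3 the counts were 5 higher and 5 lower after pilocarpine (7.74% and 3.92% of all genes), 4 and 7 after kainate (4.66% and 3.3%) and 2 and 2 after SSSE (1.66% and 1.48%). At day 10 they were 6 and 6 (3.82% and 5.11%), 2 and 3 (2.57% and 3.71%), and 1 and 0 (0.177% and 0.167%). The largest at day 3 were Vav2 (-1.03 ± 0.20, adjusted p 0.000306), Gap43 (1.03 ± 0.26) and Pdzrn3 (0.91 ± 0.26) after pilocarpine, Ntng1 (-0.86 ± 0.19), Rgma (0.64 ± 0.18) and Ngef (-0.63 ± 0.09, adjusted p 4.19e-06) after kainate, and Farp1 (-0.84 ± 0.15, adjusted p 0.00457), Vav2 (-0.76 ± 0.18) and Vasp (0.66 ± 0.15) after SSSE. At day 10 they were Vav2 (-1.05 ± 0.20, adjusted p 0.000503), Farp1 (-0.82 ± 0.14) and Vasp (0.76 ± 0.21) after pilocarpine, Plxdc1 (-0.72 ± 0.16), Farp1 (-0.63 ± 0.14) and Vasp (0.47 ± 0.12) after kainate, and Rgma, which binds the receptor neogenin (0.99 ± 0.21, adjusted p 0.0363), after SSSE.

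Efnb3, the member with the largest mean change at day 1 after SE, was compared with all tested genes over the 21 laboratory and time groups, of which the 3 of a laboratory share their controls. The genes outside the families whose changes were most like its own were Rcn1 (Pearson r 0.968), Ctdspl (0.968), Sstr2 (0.964), Lin7b (0.962) and Rreb1 (0.958). Among the members, Robo2 (0.914), Slit2 (0.913) and Plxna3 (0.898) were most alike, and Efna5 (-0.851), Unc50 (-0.774) and Sema4f (-0.684) most opposed.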

How the data were processed

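Laser-captured dentate granule cells of 164 rats were measured on 172 Affymetrix arrays. Per the submitters' processing notes the deposited intensity values came from MAS5, with no version given; the values of each array averaged 150.04 to 150.06 after leaving out 2% at each end. Array medians were 28.0 to 54.2, and the number of rats limits the precision. Of 31099 probe sets, 20826 had 1 gene symbol in the platform annotation, 436 several and 9780 none; 57 were controls. Repeat arrays of a rat (8 rats) were averaged. A probe set was tested when its signal exceeded the array median in at least 6 rats. limma 3.58.1 (R 4.3.3) was fitted to log2(signal + 16) with 1 mean per group, a fit for each model, and Benjamini-Hochberg adjustment over 10761 genes. The fit was tested on simulated data. The members and lists were chosen with earlier results of these data known.

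Named with values were up to 8 rises and 8 falls per comparison, largest first, among members called with 1 sign in every laboratory, and Sema3a, Nrp1, Nrp2, Epha4, Epha5, Efnb3, Slit1, Robo1, Ntn1 and Dcc. Lowest, median and highest levels are given at day 1, at stage 5 and in controls, and the plot of levels shows each rat for 6 genes. Rat numbers recur in every group, but only 89 of 240 same-number pairs deviated from their group means with a correlation over 0.1 (-0.463 to 0.653, median 0.068), so the numbers were not taken to pair rats. Alternatives were other values added before the logarithm, no filter, quantile and median scaling, another probe set, first arrays only, single laboratories, left-out rats, 1 fit over 28 groups and the rat number as a block.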

Additional observations from a re-analysis of the deposited data

Results flagged for a closer look

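In 12 of 136 cases, each the values of 1 leading gene in 1 group, the highest or lowest rat lay apart. Its gap to the nearest other rat, divided by the group's range, was above Dixon's 95% critical value. Chance flags about 1 in 20 such cases. All 12 lay in day 1, stage 5 or control groups, and the list is not complete for the other times. Efnb3 in SSSE day 3 rat 4 (7.63, others 9.64 to 10.14) is not among the 12. Stage 5 rat 1 of kindling laboratory A had 9.03 for Sema3e, where the others had 7.21 to 7.69, and 6.65 for Plxnc1, where they had 5.92 to 6.01. Day 1 rat 1 of kainate laboratory A, a doubted rat, had 7.50 for Slit2, where the others had 6.02 to 6.52. Day 1 rat 6 of pilocarpine laboratory A had 4.26 for Epha5, where the others had 5.99 to 6.25, and SSSE day 1 rat 1 had 7.22 for Nrp2, where the others had 8.31 to 8.73.

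The other 7 were controls. Efnb3 was 9.73 in rat 3 of pilocarpine laboratory B (others 10.47 to 10.90) and 10.03 in rat 6 of kainate laboratory B (others 10.49 to 10.73). Sema3e was 8.12 in rat 3 of kainate laboratory A (others 8.65 to 8.89) and 8.22 in rat 2 of kindling laboratory A (others 8.69 to 8.97). Among SSSE controls Nrp2 was 9.35 in rat 3 (others 8.98 to 9.09) and Robo3 was 8.10 in rat 5 (others 7.18 to 7.44). Plxna3 was 7.95 in rat 4 of kainate laboratory A (others 7.16 to 7.31).

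Times of a model differed by their own test for 20 members (day 3 minus day 1) and 24 (day 10 minus day 1) after kainate, for 16, 12 and 1 (day 10 minus day 3) after pilocarpine, for 1 (day 3 minus day 1) and 8 (day 10 minus day 1) after SSSE, and for 5 between kindling stages 5 and 2. The day 1 change differed between the SE models for Robo3 (limma F-test, adjusted p 0.0154), Sema6a (0.0154), Epha5 (0.0395), Efnb3 (0.0415) and Plxnc1 (0.0457).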

How the results depend on the processing

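Of 87 called changes of named members, none reversed in 1287 recomputed values: 1095 kept their call and 192 lost it, and 60 of the 87 kept it in every alternative other than single laboratories and left-out SSSE rats. The causes of the shifts below were not tested. For single laboratories, the separate fits and the fit of both contrast the same rats, so the number of rats was not tested either. Counts are given without the share of all genes called in the same setting. In separate fits of single laboratories the number of members called was 12 in laboratory B alone at day 1 after pilocarpine (23 over both), 2 in A and 4 in B at day 3 (9), and 0 in A and 5 in B at day 10 (8). It was 4 in A and 2 in B at day 3 after kainate (10), 0 in B at day 10 (6), and 0 in A and 0 in B at kindling stage 5 (8). The same laboratory contrasts in the fit of both laboratories called 14 in B at day 1, 3 in A and 4 in B at day 3, and 0 in A and 8 in B at day 10 after pilocarpine, 4 in A and 2 in B at day 3 and 0 in B at day 10 after kainate, and 1 in A and 0 in B at stage 5. At day 10 after pilocarpine it was 5 with arrays centred on their median, 2 without the rats nearest to day 1 and 15 with all 28 groups in 1 fit. At kindling stage 5 it was 5 with the probe set of highest variance, 2 with all 28 groups in 1 fit, and 8 without stage 5 rat 1 of laboratory A. At day 3 after SSSE (4) it was 2 without the doubted rat, 2 without the rat nearest to day 1, 2 with all 28 groups in 1 fit, and 1 to 4 with 1 rat left out in turn; each of the 5 controls left out gave 2. Leaving out 1 rat gave 8 to 15 at day 1 (12) and 0 to 0 at day 10 (0). Between SSSE days 3 and 1 (1) it was 0 with 1 added before the logarithm and 0 without the filter. Between kindling stages 5 and 2 (5) it was 3 without the filter and 2 with arrays centred. Between SE models at day 1 (5) it was 2 with 64 added, 3 without the filter, 2 with arrays centred and 9 without the doubted rats, chosen after seeing the data.

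With the rat number as a block, which the numbers do not warrant, the counts were 23, 9 and 7 after pilocarpine, 24, 10 and 8 after kainate, 14, 4 and 0 after SSSE at days 1, 3 and 10, and 0, 0 and 8 in kindling; between SSSE days 10 and 1 the block gave 2 (8 without it), and between days 3 and 1 it gave 0 (1 without it). For 50 of 164 rats the best match in another group of the laboratory bore the same number.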
